A study of Mus musculus with 6 samples.

Results

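The insulin-like growth factor (IGF) system was followed in 10 genes of pancreatic stellate cells (PSCs), one of the cell types that can give rise to cancer-associated fibroblasts. They are the ligand genes Igf1 and Igf2, the receptor gene Igf1r and the 7 genes of the binding proteins, Igfbp1 to Igfbp7. The genes were taken by name, through the Ensembl identifiers of the GENCODE M21 annotation, from 55426 features in the count table. All 10 were in the table, and 9 had enough counts to be tested.

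IGF1 and IGF2 are secreted peptides that signal through the tyrosine kinase IGF1R, mainly to the PI3K/AKT and MAPK pathways, and favor growth and survival. Nearly all IGF outside cells is held by binding proteins, which block, store or deliver it, and proteases that cut the binding proteins set the ligands free. Fibroblasts are a main local source of these proteins in many tissues, and stromal IGF is a known growth signal for pancreatic tumor cells.

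The PSCs were primary lines of low passage from the pancreas of wild-type C57BL/6 mice, for which the study used adults of both sexes. Embedded in Matrigel on a permeable support, they shared their medium, but no direct contact, with organoids of mT3, a pancreatic ductal adenocarcinoma (PDAC) line derived from a primary mouse tumor. Cocultures were kept for 48 h at 21% O2 (normoxia, 3 samples) or 1% O2 (hypoxia, 3 samples), in medium with serum, and the RNA of the PSCs was sequenced. All 6 samples had been cocultured with mT3, and PSCs cultured alone were not analysed here. The sources do not say whether the 3 samples of a condition came from separate PSC lines, so p-values measure the spread between these samples, which may be technical.

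Samples held from 24749601 to 31925054 counts. As a check of the labels, 10 of 10 genes known to rise at low oxygen were called higher at 1% O2, with log2 fold changes (log2FC) from 1.42 to 5.13. Of the fibroblast and stellate cell markers all 9 were expressed, with a summed level of 18201 to 23097 CPM (counts scaled to the size of the library) in normoxia and 18757 to 21207 in hypoxia, most of it from Col1a1 and Col1a2. Pdgfra and Pdpn were called higher (1.76-fold and 1.98-fold), Lum was called lower (4.49-fold), and the other 6 were not called. The epithelial markers Epcam, Cdh1, Krt8 and Krt18 had from 0 to 6 counts per sample, and the acinar markers Cpa1, Prss2 and Ctrb1 had 0. Of the other acinar markers, Pnlip had from 0 to 4 counts and Cela1 from 220 to 327, and Cela1 was not called. Krt19 rose from a mean of 0.715 to 22.1 CPM, and Krt7 had from 8 to 34 counts and was not called. Of 5 mesothelial markers Wt1 rose from 24.3 to 41.2 CPM, while Msln, Upk3b, Upk1b and Lrrn4 had from 0 to 16 counts, too few to test. Of 6 endothelial markers, summing to 9.98 to 15.9 CPM in normoxia and 15.001 to 21.4 in hypoxia, Tek was called higher (5.14 to 11.5 CPM) and Kdr lower (2.12 to 1.24 CPM). The part of these markers in the results was not tested. Immune markers were present in every sample, and their levels are given beside Igf1.

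A gene was called when its linear fold change passed 1.5 in either direction and its adjusted p was under 0.05 in edgeR's quasi-likelihood test over 16207 genes, with Benjamini-Hochberg adjustment. By this rule Igf1r and Igfbp3 rose at 1% O2, and Igf1, Igfbp4 and Igfbp5 fell. Igf2, Igfbp2, Igfbp6 and Igfbp7 were not called, and Igfbp1 had no counts in any sample. Thus 5 of the 9 tested members were called (55.6%), 2 higher and 3 lower, while 34.2% of all tested genes were called, 18.9% higher and 15.3% lower. The median log2 fold change was -0.52 over the tested members and -0.0040 over all tested genes. In 6 of the 9 the conditions did not overlap, 2 with all hypoxic samples above and 4 with all below, against 68.9% of all tested genes (34.9% above and 34.0% below). With 9 genes chosen by name, these shares describe the family and were not tested against other genes.

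**Figure D1:**
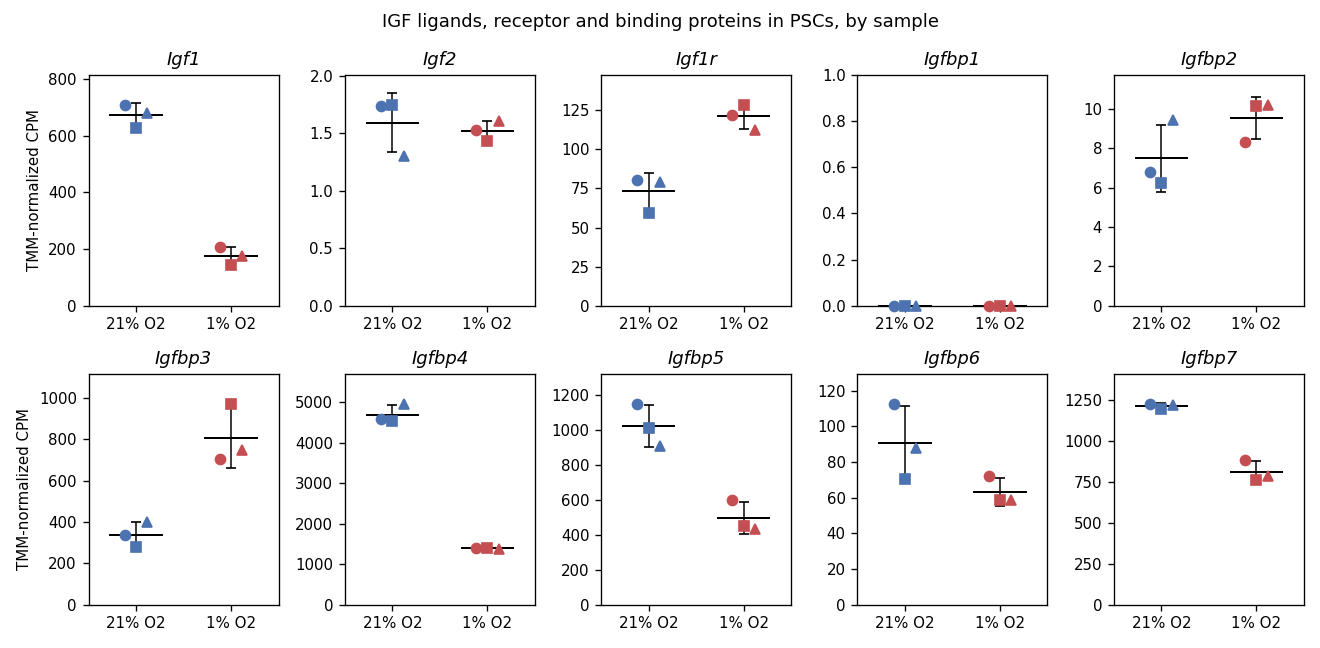
TMM-normalized CPM of the 10 genes in each sample, 1 panel per gene with its own linear axis from 0. Circles, squares and triangles are replicates 1, 2 and 3 of each condition, horizontal lines are means and bars are SDs (n = 3). The 21% and 1% O2 samples do not overlap for Igf1, Igf1r, Igfbp3, Igfbp4, Igfbp5 and Igfbp7, and Igfbp1 is at 0 throughout.

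Of the ligands, Igf1 was the abundant one and fell at 1% O2. IGF1 is the ligand that most tissues make in response to growth hormone, and its gene (ENSMUSG00000020053) lies on chromosome 10 of GRCm38, 87858265 to 87937042, plus strand. TMM-normalized CPM were 709, 628 and 682 in normoxic replicates 1, 2 and 3, and 208, 145 and 177 in hypoxic replicates. The conditions were far apart, and even the lowest normoxic value exceeded the highest hypoxic one. The mean fell from 673 ± 41.5 to 177 ± 31.7 CPM (mean ± SD, n = 3), and log2FC was -1.93 ± 0.12 (SE, edgeR adjusted p = 1.81e-06), or 3.81-fold lower.

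Macrophages also express Igf1, and in a bulk sample fewer cells of a type and less RNA per cell cannot be told apart. The 12 immune cell markers summed to 985 to 1742 CPM in normoxia and 507 to 912 in hypoxia. Of the 12, 7 were called lower (58.3%) and 0 higher, against 15.3% and 18.9% of all tested genes. The most abundant of them, Lyz2, fell from a mean of 899.9 to 413 CPM. Within each condition the levels of Igf1 and of these markers ran in opposite order. In normoxia the marker sum was highest and Igf1 lowest in replicate 2, while the marker sum was lowest and Igf1 highest in replicate 1, and the same replicates held these places in hypoxia. The marker sum differed 1.77-fold among the normoxic samples and Igf1 differed 1.13-fold, and in hypoxia the figures were 1.80-fold and 1.44-fold. The part of immune cells in the fall of Igf1 was not tested.

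Igf2, the fetal growth factor expressed from the paternal allele, was expressed at a low level and was not called. Its gene (ENSMUSG00000048583) lies on chromosome 7, 142650766 to 142666816, minus strand. It had 45, 46 and 32 counts in normoxic and 39, 45 and 51 in hypoxic samples, and the conditions overlapped. Means were 1.59 ± 0.255 and 1.52 ± 0.0837 CPM (SD, n = 3 each), with log2FC -0.07 ± 0.21 (SE, edgeR adjusted p = 0.801). No change was detected. Exons of Igf2 share 3596 bases with Gm49394, a gene on the same strand, so reads could have been divided between them, but Gm49394 had 0 counts in every sample. The antisense gene Igf2os, with 98 shared bases, had from 0 to 4 counts, and the strand setting of the counting is not given in the sources used here.

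The receptor moved opposite to Igf1. Igf1r (ENSMUSG00000005533; chromosome 7, 67952827 to 68233668, plus strand) was at 80.5, 59.6 and 79.2 CPM in normoxic and 122, 128 and 113 CPM in hypoxic samples. All hypoxic samples were higher than the normoxic ones, with normoxic replicate 2 the lowest of the 6. The mean rose from 73.1 ± 11.7 to 121 ± 7.93 CPM (mean ± SD, n = 3), and log2FC was 0.73 ± 0.11 (SE, edgeR adjusted p = 0.000359). Without normoxic replicate 2 the log2 fold change was 0.595, still past the 1.5-fold threshold.

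Among the binding proteins, Igfbp3 was the only member called higher. IGFBP3 is the main IGF carrier in blood, where it forms a complex with the acid-labile subunit, and in tissues it can keep IGFs from the receptor. Igfbp3 (ENSMUSG00000020427; chromosome 11, 7206086 to 7213923, minus strand) had values of 335, 279 and 399 CPM in normoxia and 703, 973 and 749 CPM in hypoxia. The conditions did not overlap, and hypoxic replicate 2 stood highest. The mean rose from 338 ± 60.3 to 808 ± 144 CPM (mean ± SD, n = 3), and log2FC was 1.26 ± 0.15 (SE, edgeR adjusted p = 8.92e-05), or 2.39-fold.

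Igfbp4 showed the largest fall among the tested binding proteins. IGFBP4 acts mostly as an inhibitor of IGF action until the protease PAPP-A cuts it. Igfbp4 (ENSMUSG00000017493; chromosome 11, 99041244 to 99054392, plus strand) was at 4575, 4527 and 4959 CPM in normoxia and at 1398, 1388 and 1380 CPM in hypoxia. The 3 hypoxic samples lay close together, far below the normoxic ones. The mean fell from 4687 ± 237 to 1389 ± 8.89 CPM (mean ± SD, n = 3), and log2FC was -1.75 ± 0.070 (SE, edgeR adjusted p = 1.35e-07), or 3.37-fold lower.

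Igfbp5 fell as well. IGFBP5 binds to the extracellular matrix and is prominent in fibroblasts and in involuting tissue. Igfbp5 (ENSMUSG00000026185; chromosome 1, 72857932 to 72874884, minus strand) had values of 1149, 1007 and 909 CPM in normoxia and 600.1, 450.1 and 432 CPM in hypoxia. No hypoxic sample reached the lowest normoxic one. The mean fell from 1022 ± 121 to 494 ± 92.2 CPM (mean ± SD, n = 3), and log2FC was -1.05 ± 0.13 (SE, edgeR adjusted p = 0.000127), or 2.07-fold lower.

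Igfbp7 lay at the fold threshold. IGFBP7 binds IGFs more weakly than its relatives and is a matrix and vessel wall protein. Igfbp7 (ENSMUSG00000036256; chromosome 5, 77349240 to 77408041, minus strand) had values of 1228, 1194 and 1218 CPM in normoxia and 885, 763 and 784 CPM in hypoxia, without overlap. Its log2FC of -0.58 ± 0.070 (SE, edgeR adjusted p = 9.9e-05) is 1.497-fold, just short of the 1.5-fold rule. DESeq2, upper-quartile normalization and the fit without a filter on low counts put it past that threshold. Its exons share 85 bases with Polr2b on the opposite strand, which had from 1132 to 1515 counts per sample.

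Igfbp6 and Igfbp2 were not called. IGFBP6 binds IGF2 with preference over IGF1. Igfbp6 (ENSMUSG00000023046; chromosome 15, 102144362 to 102149511, plus strand) was at 113, 70.5 and 88.1 CPM in normoxia and 71.9, 58.5 and 58.5 CPM in hypoxia, so that hypoxic replicate 1 lay above normoxic replicate 2. Its log2FC was -0.52 ± 0.15 (SE, edgeR adjusted p = 0.015), 1.44-fold lower and below the fold threshold. Without normoxic replicate 2 the log2 fold change was -0.68 and without hypoxic replicate 1 it was -0.63, and in both fits Igfbp6 was called lower. Without normoxic replicate 1 it was -0.34, and without hypoxic replicate 3 the adjusted p was 0.0611 from edgeR. With the replicate block it was -0.50 (standard error 0.078, edgeR adjusted p = 0.000746), still short of the fold threshold. IGFBP2, an integrin-binding member of the family, had a gene (ENSMUSG00000039323; chromosome 1, 72824503 to 72852474, plus strand) at 6.81, 6.26 and 9.45 CPM in normoxia and 8.325, 10.1 and 10.2 CPM in hypoxia. These samples overlapped, and the log2 fold change of 0.35 (standard error 0.16) missed the threshold, with an adjusted p of 0.0874 from edgeR. For Igfbp2 it ran from 0.23 without normoxic replicate 2 to 0.54 without normoxic replicate 3 (adjusted p = 0.0118 from edgeR), and the adjusted p with the replicate block was 0.0388, still below the 1.5-fold threshold.

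Igfbp1, which encodes a liver-made and hormone-regulated binding protein known as a hypoxia-responsive gene in other cells, was not detected. Igfbp1 (ENSMUSG00000020429; chromosome 11, 7197782 to 7202546, plus strand) had 0 counts in all 6 samples. A count of 0 allows up to 3 counts, which is from 0.0943 to 0.122 CPM in these libraries and covers counting error only. Its tail-to-tail neighbor Igfbp3, 3539 bases away, rose in the same samples. Igfbp2 and Igfbp5 are another such pair, 5457 bases apart, in which Igfbp5 fell and Igfbp2 was not called.

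**Figure D2:**
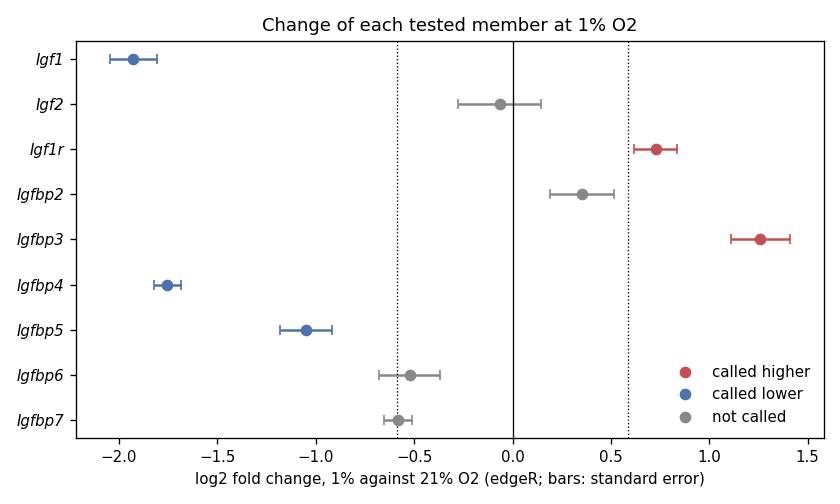
Log2 fold change of the 9 tested genes at 1% against 21% O2 from edgeR, with standard errors as bars. Dotted lines mark a linear fold change of 1.5. Igf1r and Igfbp3 (red) were called higher, Igf1, Igfbp4 and Igfbp5 (blue) lower, and Igfbp7 lies on the lower dotted line.

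Sequences upstream of 4 members are shown because these genes of one family and its receptor moved differently: Igfbp3 and Igf1r rose, Igfbp4 fell most among the binding proteins, and Igfbp7 lay at the threshold. Each is the 250 bases before the RefSeq start of the gene on GRCm38.p6, written 5′ to 3′ along the gene. For Igf1r this start lies upstream of the GENCODE one. Capitals mark ACGTG or GCGTG, the core letters that hypoxia-inducible factors recognize, or their reverse complements CACGT and CACGC.
Igfbp3, chr11:7213924-7214173, minus strand: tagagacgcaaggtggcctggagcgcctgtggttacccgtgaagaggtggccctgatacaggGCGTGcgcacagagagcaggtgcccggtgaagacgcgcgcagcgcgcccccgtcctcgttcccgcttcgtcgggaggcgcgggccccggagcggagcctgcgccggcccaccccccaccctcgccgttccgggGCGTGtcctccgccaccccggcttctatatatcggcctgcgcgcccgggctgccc
Igf1r, chr7:67952007-67952256, plus strand: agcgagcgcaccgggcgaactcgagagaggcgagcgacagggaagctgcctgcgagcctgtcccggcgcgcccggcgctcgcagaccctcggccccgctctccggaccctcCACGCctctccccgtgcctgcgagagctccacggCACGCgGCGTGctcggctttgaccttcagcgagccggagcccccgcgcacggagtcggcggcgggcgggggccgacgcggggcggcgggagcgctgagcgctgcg
Igfbp4, chr11:99040994-99041243, plus strand: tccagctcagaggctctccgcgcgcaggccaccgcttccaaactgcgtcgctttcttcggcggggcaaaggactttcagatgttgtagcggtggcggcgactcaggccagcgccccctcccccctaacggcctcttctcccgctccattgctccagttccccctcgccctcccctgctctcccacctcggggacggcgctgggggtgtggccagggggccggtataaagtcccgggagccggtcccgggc
Igfbp7, chr5:77408046-77408295, minus strand: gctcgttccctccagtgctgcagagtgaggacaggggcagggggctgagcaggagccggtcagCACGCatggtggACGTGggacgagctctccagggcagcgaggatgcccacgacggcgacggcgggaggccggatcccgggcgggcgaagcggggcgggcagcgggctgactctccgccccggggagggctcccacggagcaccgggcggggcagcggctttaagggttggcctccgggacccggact

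The Igfbp3 window held the letters at positions -188 and -55 from the start, and the Igf1r window at -139, -105 and -99. The Igfbp7 window held them at -187 and -175, and the Igfbp4 window did not hold them. Of 32851 windows of this length in the table, 12679 (38.6%) held at least 1 match, so matches are common, and a match is not evidence of binding. Among the other members, the window of Igfbp1, which had no counts, held 1 match, at -74, and those of Igfbp5 and Igfbp6 held 0. Igfbp2, which was not called, has 2 windows, with 4 matches in the first (at -155, -142, -141 and -132) and 0 in the second. Igf2 has 4 windows, of which 1 held a match, at -22. The Igf1 window held 1 match, at -196, but all 250 of its bases lie in annotated exons, downstream of the GENCODE start of the gene, and the same holds for the Igf2 window with the match.

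Per unit of length, the order of the binding proteins changed between the conditions. Levels here are TPM, which are counts divided by the length of all annotated exons and scaled to the same sum in each sample. In normoxia Igfbp4 (3538 ± 159 TPM) and Igfbp7 (3347 ± 86.5) led and their samples overlapped. Igfbp5 (568 ± 75.0), Igfbp3 (360 ± 63.3), Igfbp6 (272 ± 67.3) and Igf1 (227 ± 16.4) followed, of which Igfbp3, Igfbp6 and Igf1 overlapped with their neighbor in the order. Igf1r (14.5 ± 2.43) and Igfbp2 (13.5 ± 2.98) overlapped too, and Igf2 was at 0.928 ± 0.155 TPM (SD, n = 3 for each).

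In hypoxia Igfbp7 alone led, at 2353 ± 179 TPM, above Igfbp4 at 1104 ± 2.78 and Igfbp3 at 906 ± 161. Igfbp5 (289 ± 52.1), Igfbp6 (199 ± 23.4), Igf1 (62.7 ± 11.1), Igf1r (25.3 ± 1.52), Igfbp2 (18.2 ± 2.13) and Igf2 (0.935 ± 0.0564) came next. With these lengths no neighbors in this order overlapped, but Igfbp3 and Igfbp4 were close, at 1088 and 1101 TPM in hypoxic replicate 2. Igfbp3 therefore passed Igfbp5, and Igfbp4 dropped below Igfbp7. With the length of the longest transcript in place of all exons, Igf1 lay above Igfbp6 in normoxia, at 246 against 210.1 TPM on average. Igfbp4 and Igfbp3 were then at 972 and 894 TPM on average in hypoxia. In hypoxic replicate 2 Igfbp3 (30483 counts over 2421 bases) lay above Igfbp4 (43503 counts over 3831 bases), so these neighbors overlapped.

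The summed level of the binding protein transcripts was 8097 ± 314 TPM in normoxia and 4869 ± 162 TPM in hypoxia (SD, n = 3 each). Samples of the conditions did not overlap (two-sided exact permutation p = 0.1, the smallest that 3 samples against 3 can give). Of this sum, Igfbp4 made up 42.2%, 43.9% and 45.0% in normoxic samples and 21.95%, 22.6% and 23.5% in hypoxic samples. Igfbp3 went the other way, from 4.36%, 3.81% and 5.11% to 15.6%, 22.4% and 18.0%. The share of Igfbp7 was 41.4%, 42.3% and 40.4% in normoxia and 50.75%, 45.4% and 48.7% in hypoxia, higher in every hypoxic sample although its own level was lower there. Shares of Igfbp5 (7.01 ± 0.874% and 5.91 ± 0.882%) and Igfbp6 (3.34 ± 0.721% and 4.08 ± 0.365%, SD, n = 3 each) overlapped between the conditions. Igfbp2 made up the smallest share of the expressed binding proteins, 0.150%, 0.145% and 0.205% in normoxia and 0.313%, 0.395% and 0.416% in hypoxia, without overlap.

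**Figure D3:**
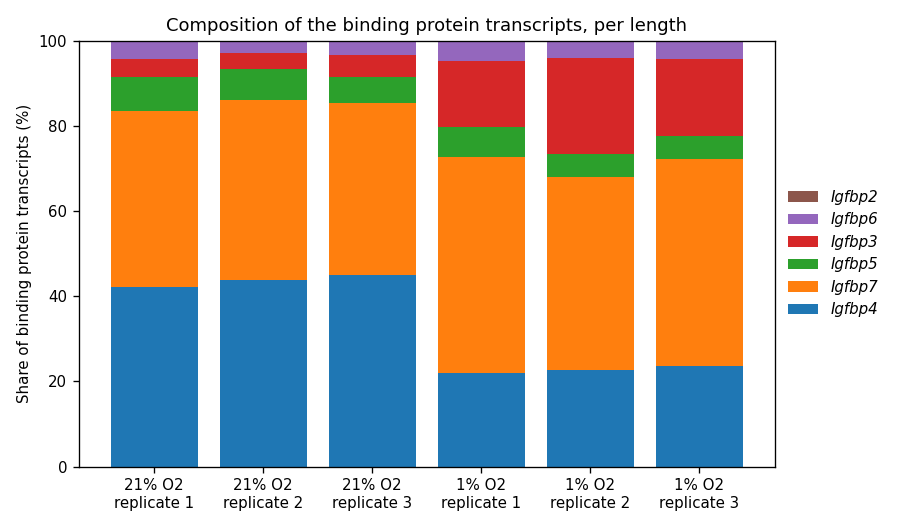
Share of each binding protein in the summed binding protein transcripts of a sample, in percent of TPM, as stacked bars for the 3 samples at 21% and the 3 at 1% O2. Igfbp4 (bottom) makes up 42.2% to 45.0% of the bars at 21% O2 and 21.95% to 23.5% at 1% O2, and Igfbp3 (red) 3.81% to 5.11% and 15.6% to 22.4%.

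Ligand and receptor were then set against each binding protein within every sample, as the log2 ratio of counts, in which the scaling of the libraries and the lengths of the genes cancel between conditions. Of 19 ratios, 15 did not overlap between the conditions. Each of these had the smallest p that the design allows (two-sided exact permutation p = 0.1, 0.127 after Benjamini-Hochberg adjustment over the 19), so no ratio could pass 0.05. Among all tested genes the share without overlap, in CPM, was 68.9%. The ratios share Igf1, Igf2 or Igf1r as denominator and largely follow from the fold changes given above, so they are not independent of these or of each other.

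Igf1 and Igfbp4 fell together. The log2 ratio of Igfbp4 to Igf1 was 2.69, 2.85 and 2.86 in normoxia and 2.75, 3.26 and 2.96 in hypoxia, with a difference of 0.19 (standard error 0.16) that was within the spread of the samples. Every other expressed binding protein had a higher ratio to Igf1 in all hypoxic samples than in any normoxic one. The largest difference was that of Igfbp3, from -1.08, -1.17 and -0.77 to 1.75, 2.75 and 2.08. Igfbp3 counts were thus below Igf1 counts in all normoxic samples and above them in all hypoxic samples, a shift of 3.20 on the log2 scale (standard error 0.32), or 9.2-fold. The shifts of Igfbp2 (2.31, standard error 0.29), Igfbp6 (1.44, 0.17), Igfbp7 (1.36, 0.10) and Igfbp5 (0.88, 0.14) were smaller. The mean levels of Igfbp5, Igfbp6 and Igfbp7 were themselves lower in hypoxia, but fell less than Igf1. Over all binding proteins there were 34.3, 36.9 and 36.2 transcripts per Igf1 transcript in normoxia and 68.5, 94.9 and 74.3 in hypoxia, on the TPM scale (exact permutation p = 0.1).

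Against the receptor the picture was different. Hypoxic minus normoxic log2 ratios to Igf1r were -2.49 for Igfbp4 (standard error 0.13), -1.80 for Igfbp5 (0.22), -1.32 for Igfbp7 (0.16) and -1.24 for Igfbp6 (0.15), all without overlap. For Igfbp3 the difference was 0.52 (standard error 0.14), the only positive one, and Igfbp2 overlapped. The log2 ratio of Igf1 to Igf1r was 3.14, 3.40 and 3.11 in normoxia and 0.77, 0.18 and 0.65 in hypoxia, 6.41-fold lower on average. Against Igf2, which had few counts, the differences were 1.31 for Igfbp3 (standard error 0.33), -1.70 for Igfbp4 (0.19), -1.003 for Igfbp5 (0.18) and -0.53 for Igfbp7 (0.16), also without overlap. The ratios of Igfbp2 and Igfbp6 to Igf2 overlapped.

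**Figure D4:**
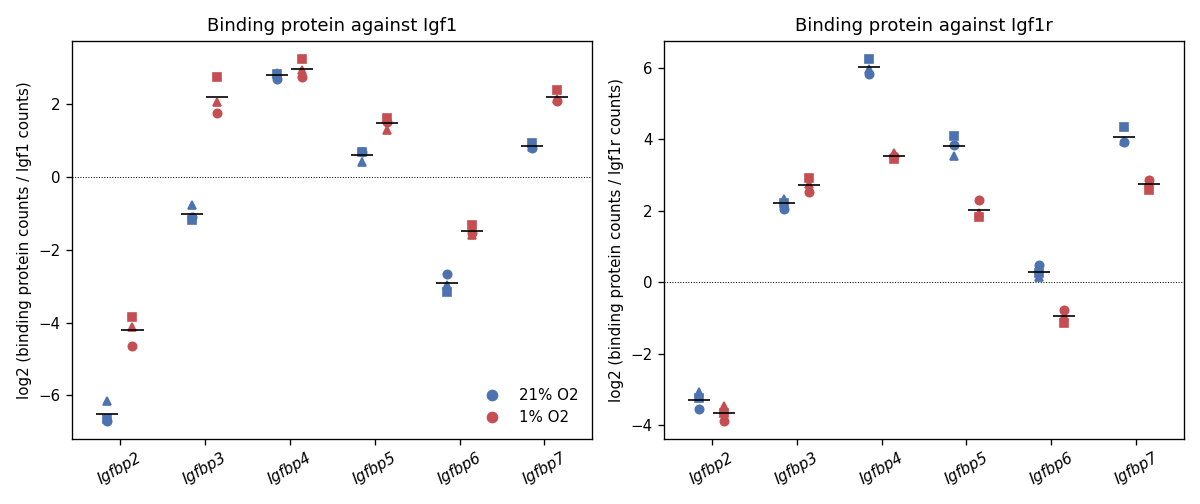
Log2 ratio of the counts of each expressed binding protein to those of Igf1 (left) and Igf1r (right) in each sample, at 21% O2 (blue) and 1% O2 (red). Circles, squares and triangles are replicates 1, 2 and 3, and lines are means. All ratios to Igf1 are higher at 1% O2 except that of Igfbp4, which overlaps, and those to Igf1r are lower except for Igfbp3, which is higher, and Igfbp2, which overlaps.

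Other genes of the IGF pathway were taken from a list of 34, of which 31 could be tested. Of these, 6 were called higher (19.4%) and 7 lower (22.6%), against 18.9% and 15.3% of all tested genes. The median log2 fold change of the 31 was -0.25.

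Of the genes that act on the binding proteins, 3 of 8 tested were called higher and 4 lower, and 2 of the 4, Pappa and Pappa2, lost their call in 4 of the 6 fits without 1 sample. The stanniocalcins, secreted inhibitors of PAPP-A, rose together. Stc1 was at 9.47, 12.6 and 12.5 CPM in normoxia and 87.7, 76.2 and 84.4 in hypoxia, and log2FC was 2.85 ± 0.11 (SE, edgeR adjusted p = 1.02e-07). Stc2 was at 15.3, 18.4 and 21.3 CPM and at 125, 126 and 122 CPM, and log2FC was 2.76 ± 0.10 (SE, edgeR adjusted p = 9e-08). No hypoxic sample overlapped a normoxic one for either gene. Pappa itself, chosen for description after its values were seen, was at 174, 97.2 and 161 CPM in normoxia and 106, 80.4 and 94.9 CPM in hypoxia. It was called lower with log2FC -0.62 ± 0.19 (SE, edgeR adjusted p = 0.0194), but the samples overlapped. In 4 of the 6 fits that left out 1 sample Pappa was no longer called, namely without normoxic replicate 1 (-0.46), normoxic replicate 3 (-0.54), hypoxic replicate 2 (-0.52) or hypoxic replicate 3 (-0.63). Over all its alternatives the adjusted p ran from 9.98e-05 without normoxic replicate 2 to 0.0694 without normoxic replicate 3, both from edgeR. With the replicate block Pappa stayed called, at -0.59 (standard error 0.093, edgeR adjusted p = 0.000831).

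Adam12, a membrane protease that cuts IGFBP3 and IGFBP5, fell from 439, 407 and 382 CPM to 88.3, 79.0 and 76.7, a log2 fold change of -2.33 (standard error 0.078). Htra1, a secreted serine protease that cuts IGFBP5 and was also chosen after its values were seen, rose from 453 ± 63.8 to 950.3 ± 66.8 CPM (SD, n = 3 each). These proteases thus moved in opposite directions. Igfals, which encodes the acid-labile subunit, was low and fell from 3.72 ± 0.666 to 0.830 ± 0.166 CPM (SD, n = 3 each). Pappa2, also chosen after its values were seen, was called lower at an adjusted p of 0.0432 from edgeR, but not with the replicate block (0.0643), DESeq2 (0.0619) or limma-voom (0.0597). It was also not called without normoxic replicate 1 (0.164), normoxic replicate 3 (0.103), hypoxic replicate 1 (0.114) or hypoxic replicate 3 (0.127). Htra3 was the 1 tested gene not called.

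Of the receptors, Insr and Igf2r were tested and neither passed the fold threshold. Insr, the insulin receptor, was at 50.9 ± 0.856 and 61.1 ± 0.716 CPM, and Igf2r, which clears IGF2, at 239 ± 33.7 and 200.4 ± 4.25 CPM (SD, n = 3 each). Igf1r was therefore the only one of the tested receptors called at 1% O2, although the difference between the receptors was not tested.

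Below the receptor, 1 of 15 genes was called higher (6.67%) and 3 lower (20.0%), against 18.9% and 15.3% of all tested genes. Irs1, the docking protein that couples IGF1R to PI3K, fell from 31.9, 34.2 and 30.3 CPM to 14.7, 16.7 and 16.5, with log2FC of -1.004 (SE 0.078). Pik3r1, the regulatory subunit of PI3K, fell with a log2 fold change of -0.82 (standard error 0.069), and Grb14, an adaptor that restrains the insulin receptor, with -1.34 (standard error 0.14). Foxo3, a transcription factor that AKT keeps out of the nucleus, rose with a log2 fold change of 0.74 (standard error 0.067). The highest adjusted p among these genes was 3.35e-05 from edgeR, and no sample of 1 condition overlapped the other. The kinase genes Akt1, Akt2, Pdpk1, Mtor and Rps6kb1 were not called. Akt1 (log2FC -0.42), Akt2 (-0.44) and Rps6kb1 (-0.32) were lower without overlap but short of the fold threshold. Their edgeR adjusted p were 0.00027, 5.62e-05 and 0.00111. Pdpk1 and Mtor overlapped.

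Of the genes linked to ligand expression, 2 of 6 tested were called higher (33.3%) and 0 lower, against 18.9% and 15.3% of all tested genes. H19, the imprinted noncoding RNA that lies 72622 bases from Igf2 and shares its enhancers, had 118, 190 and 189 counts in normoxia and 2141, 3579 and 2662 in hypoxia. It rose with log2FC 3.86 ± 0.19 (SE, edgeR adjusted p = 4.55e-07), while Igf2 was not called. Igf2bp2, which encodes an RNA-binding protein named for Igf2 mRNA, rose from 72.6 ± 7.20 to 148 ± 8.50 CPM (SD, n = 3 each). The growth hormone receptor gene Ghr, at 132 ± 18.1 and 122 ± 4.11 CPM (SD, n = 3 each), and Stat5a and Stat5b were not called.

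**Figure D5:**
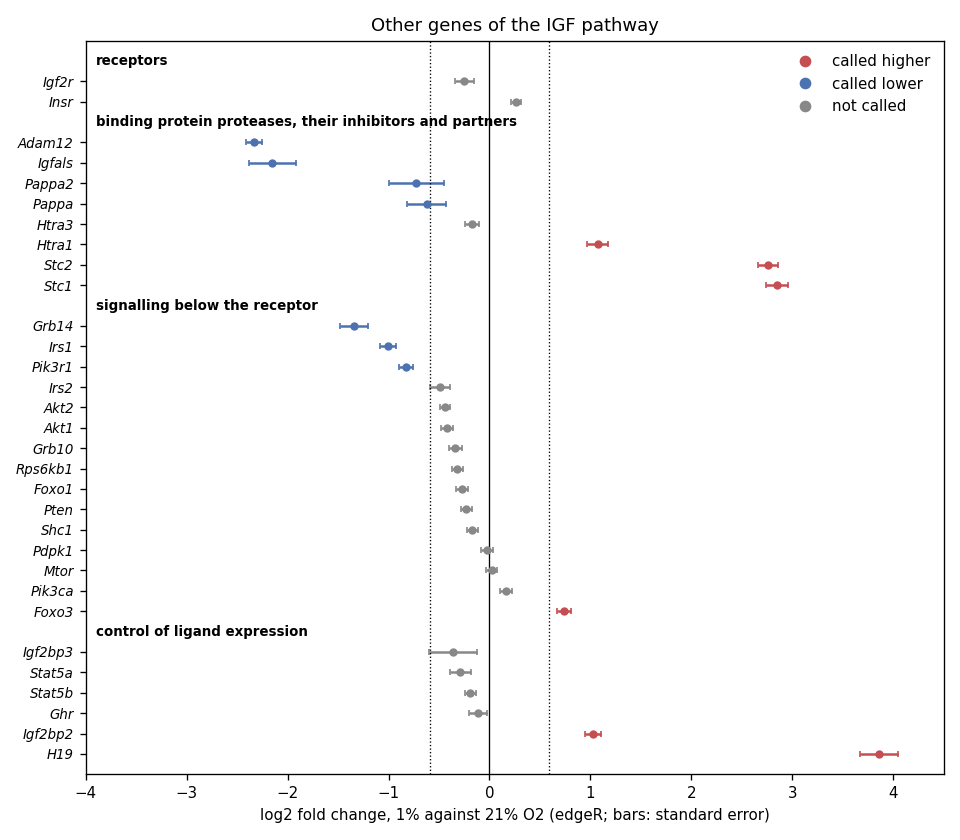
Log2 fold change at 1% against 21% O2 from edgeR for the 31 tested genes of the pathway list, grouped by role, with standard errors as bars and dotted lines at a linear fold change of 1.5. H19, Stc1 and Stc2 have the highest values (3.86, 2.85 and 2.76) and Adam12 the lowest (-2.33), and 11 of the 15 signaling genes were not called.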

How the data were processed

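RNA was measured in 6 samples of PSCs cocultured with mT3 organoids, 3 at 21% and 3 at 1% O2. The authors prepared poly(A) libraries, trimmed reads with Cutadapt, mapped them to GRCm38 with STAR (2.6.1b) and estimated counts with RSEM (1.3.1). The deposited values are expected counts (estimated counts per gene), not normalized, and all were whole numbers. The annotation release is not given in the sources used here. GENCODE M21 held 55240 of the 55426 features. Samples were grouped by the oxygen labels.

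edgeR 4.0.16 (limma 3.58.1, R 4.3.3) was run on all genes with filterByExpr, TMM normalization and the quasi-likelihood test, where the study used DESeq2. The fold threshold of 1.5 and the adjusted p threshold of 0.05 follow the study's methods. Standard errors are the log2 fold change divided by the square root of F. TPM were computed from exon union lengths, since RSEM's effective lengths were not used here. Count ratios used a pseudocount of 0.5 counts. The test was tested on simulated data. RSEM divides shared reads by an estimate, so overlapping genes are uncertain. Promoter sequences are from RefSeq (GRCm38.p6), and windows of all 10 members were found.

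Members and lists were chosen with earlier results of these data known. All members were named, with up to 4 called pathway genes per role by absolute log2 fold change at a mean of at least 1 CPM. Alternatives were the replicate block, DESeq2 1.42.0, limma-voom, other scalings, filters, thresholds, pseudocounts and lengths, and each sample left out. Counts without molecular identifiers are not independent molecules.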

Additional observations from a re-analysis of the deposited data

How the results depend on the processing

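Directions of the 5 called members held in all 14 alternative fits, and Igf1, Igf1r, Igfbp3, Igfbp4 and Igfbp5 were called in each. Igfbp7 passed the fold threshold with DESeq2 (-0.59), upper-quartile normalization (-0.61) and no filter on low counts (-0.60). With each replicate left out its log2 fold change ran from -0.65 to -0.54, and it was called without normoxic replicate 2 (-0.60), normoxic replicate 3 (-0.59) or hypoxic replicate 1 (-0.65). Igfbp6 ran from -0.68 to -0.34 in these fits, and members called lower numbered 3 to 5. Without a fold threshold 5 members and 18 pathway genes were called lower. At a fold of 2, 1 member was called higher and 4 pathway genes lower. With longest transcript lengths the share of Igfbp2 was 0.266 points higher in hypoxia and that of Igfbp4 changed by -22.6 points, against 0.208 and -21.0 points with exon union lengths, and that of Igfbp3 by 16.7 against 14.2 points. Pappa2 (log2 fold change -0.72) was not called with the replicate block, DESeq2, limma-voom or in 4 fits without 1 sample.

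The labels give both conditions the numbers 1 to 3. The sources do not say that equal numbers pair samples, so they were not taken as pairs. Over 16207 genes, deviations from the group mean correlated at 0.142 for number 1, 0.139 for number 2 and 0.0378 for number 3. All 6 samples correlated best with their own number, a hint from the data that equal numbers may be pairs, which the design does not state. With the replicate number as a block, log2 fold changes were -1.94 for Igf1, 0.74 for Igf1r, 1.26 for Igfbp3, -1.75 for Igfbp4 and -1.06 for Igfbp5, with the same members called, and 6 pathway genes were called lower in place of 7. Standard errors with the block, against those without it, were 0.074 and 0.12 for Igf1, 0.062 and 0.13 for Igfbp5, and 0.059 and 0.070 for Igfbp4. They were 0.11 and 0.11 for Igf1r, and 0.15 and 0.15 for Igfbp3. For the 19 ratios the mean of the differences within numbers equals the difference of means by arithmetic, and the spread of the differences within numbers was not tested. Depth limits Igfbp1, and 3 samples against 3 limit all single-value tests.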
